A study of Mus musculus with 27 samples.

Results

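The chemokine ligand genes were followed in KUSA4b10 cells, a mouse marrow stromal line, after treatment with parathyroid hormone or parathyroid hormone-related protein. A gene was taken as a chemokine ligand when its symbol began with Ccl, Cxcl, Cx3cl or Xcl and a number and when at least 1 probe set on the array carried that symbol alone. This gave 33 of the 18193 genes that could be named in this way, and 28 of the 33 passed the filter on low values, against 15711 of all genes. Where a gene had several such probe sets, the one with the greatest mean log2 intensity across the 27 arrays stood for it. The groups were cells given PTH, residues 1 to 34, at 10 nM, cells given PTHrP, residues 1 to 141, at 20 nM, and untreated cells, each sampled at 1, 6 and 24 h on 3 arrays. All 9 groups were the same cell line, and the peptides differed in labelled dose and length as well as in identity, so dose, length and identity cannot be told apart where the peptides are compared. The labels do not say that replicates were separate cultures, and the p-values reflect the spread among these arrays alone, which could be technical.

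Chemokines are small secreted proteins that bind G protein-coupled receptors on leukocytes and steer their migration along gradients. CXC ligands that carry a glutamate-leucine-arginine motif mainly attract neutrophils through Cxcr2, CC ligands attract monocytes, macrophages, eosinophils or lymphocytes, and Cxcl12 holds haematopoietic cells in the marrow. PTH and PTHrP act on cells of the osteoblast lineage through a shared receptor, the product of Pth1r, which signals mainly through cyclic AMP.

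Within a group the arrays correlated at 0.992 to 0.9978 across genes, which are not independent replicates, except with PTHrP at 1 h. There replicate 3 stood apart, with a lowest correlation of 0.9831, while replicates 1 and 2 correlated at 0.996. For Cxcl1, Cxcl5, Ccl2, Ccl7, Ccl8 and Ackr3, PTHrP against untreated cells at 1 h is given with and without replicate 3. The 3' probe set of Actb exceeded its 5' probe set, a sign of RNA quality, by 0.42 and 0.44 log2 units with PTH and PTHrP at 24 h, against 0.38 in untreated cells. At 6 h the same difference was 0.34 and 0.30 with PTH and PTHrP, against 0.25 in untreated cells, and at 1 h it was 0.27 and 0.28, against 0.23. The part of this in the results was not tested. Of 8 stromal and osteoblast-lineage markers 6 were on the array and all 6 passed the filter. Of 11 macrophage and blood cell markers, 9 passed the filter and Ptprc and Itgam did not. Among the 9, the group means ran from 7.76 to 8.09 for Csf1r, 6.86 to 7.24 for Lyz2 and 6.49 to 6.69 for Fcgr1. The summed level of the list ran from 9.60 to 10.06 log2 units over all arrays. Whether such cells were present was not tested. Of 5 endothelial markers Tek was below the filter and none of the other 4 passed the test in any of the 15 comparisons. The T cell gene Cd3e and the B cell gene Cd79a, of the same list, read 7.20 to 7.47 and 6.15 to 6.36 in the group means, so a low or moderate reading by itself is not taken here as expression.

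Most chemokine ligand genes stayed level, and a small set moved. With PTH, 2 of the 28 genes passed the test at 1 h, 6 at 6 h and 4 at 24 h, against 1.74%, 29.3% and 11.6% of all genes tested. With PTHrP the counts were 0, 4 and 5, against 1.81%, 20.9% and 6.1% of all genes. The count of 0 came from limma's test with Benjamini-Hochberg adjustment, and 3 genes had an unadjusted p under 0.05. It also rests on the 1 probe set taken per gene. Other probe sets of Cxcl1, tested after the values were seen, were higher with PTHrP at 1 h. Their log2 fold changes were 3.43 and 1.74 (limma adjusted p 1.26e-09 and 8.65e-10), as described below. All called genes were higher with the peptide except Cxcl10 with PTH at 24 h. The higher calls were 7.14%, 21.4% and 10.7% of the members with PTH, against 1.44%, 11.4% and 5.69% of all genes. With PTHrP at 6 and 24 h they were 14.3% and 17.9%, against 8.7% and 3.09%. Ccl11, called with both peptides at 6 h, passed the filter only through treated arrays of 6 h, and without it the higher calls at 6 h were 18.5% of 27 members with PTH and 11.1% with PTHrP. The 1 lower call stood against 5.96% of all genes lower with PTH at 24 h. The median log2 fold change of the 28 genes lay between -0.083 and 0.117 in these 6 comparisons, against -0.021 to 0.031 for all genes. The group means of 5 of the 28 genes, 17.9%, spanned more than 1 log2 unit, against 12.7% of all genes, and the median span was 0.29 log2 units, against 0.39.

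**Figure D1:**
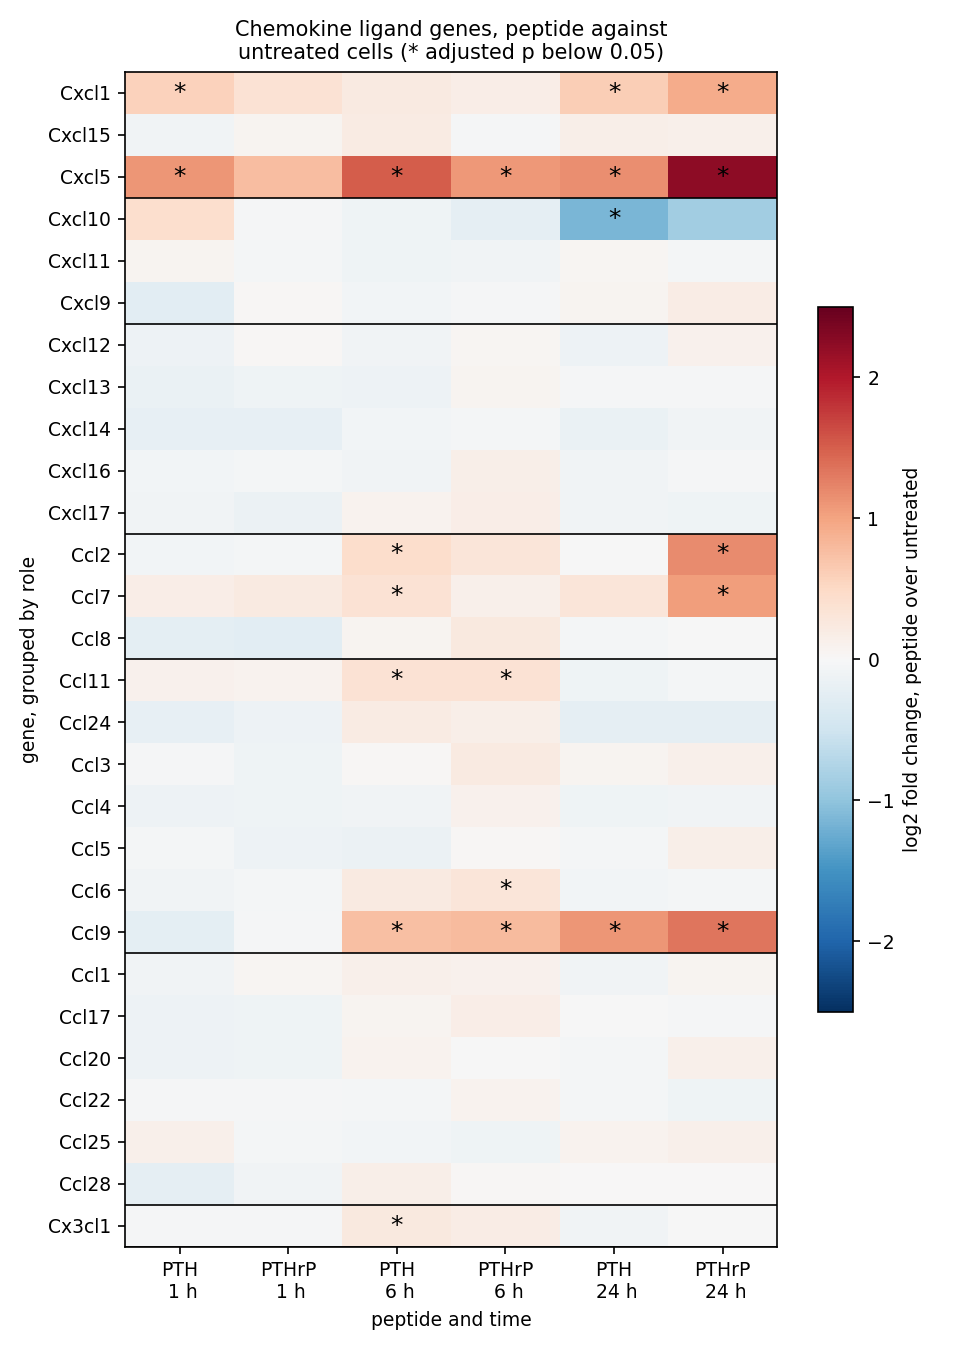
Log2 fold change of each of the 28 tested chemokine ligand genes with PTH or PTHrP over untreated cells of the same time (colour, -2.5 to 2.5 log2 units), with genes in rows grouped by role and the 6 comparisons in columns. Asterisks mark an adjusted p below 0.05, and they fall on 9 genes, with the deepest colour at Cxcl5 with PTHrP at 24 h (2.23).

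The 9 genes that passed the test in at least 1 of these 6 comparisons were Cxcl1, Cxcl5, Cxcl10, Ccl2, Ccl6, Ccl7, Ccl9, Ccl11 and Cx3cl1. For the other 19 tested genes the log2 fold changes with either peptide lay between -0.27 and 0.24 and no adjusted p was below 0.221. Ccl12, Ccl27a, Cxcl2, Cxcl3 and Xcl1 did not reach a log2 intensity of 5 on at least 3 arrays and were not tested.

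Of the neutrophil-attracting CXC ligands of Cxcr2, Cxcl1 and Cxcl5 were higher with both peptides. Cxcl1, Cxcl2, Cxcl3, Cxcl5 and Cxcl15 lie in 1 cluster on chromosome 5, in the order Cxcl5, Ppbp, Pf4, Cxcl3, Cxcl15, Cxcl1 and Cxcl2 in RefSeq. Cxcl1 and Cxcl5 passed the test and Cxcl15 did not, with log2 fold changes between -0.09 and 0.20. The stretches before the transcription start of Cxcl1, Cxcl2 and Cxcl3 are shown because all 3 genes carry the same run of letters, which Cxcl1 shares with its neighbours although only Cxcl1 of the 3 passed the filter. They are from RefSeq on GRCm38.p6, 250 bases each, on the plus strand, at chr5:90890995-90891244 for Cxcl1, chr5:90903649-90903898 for Cxcl2 and chr5:90785851-90786100 for Cxcl3, and the capitals mark matches to the NF-kappa B consensus on either strand.
Cxcl1: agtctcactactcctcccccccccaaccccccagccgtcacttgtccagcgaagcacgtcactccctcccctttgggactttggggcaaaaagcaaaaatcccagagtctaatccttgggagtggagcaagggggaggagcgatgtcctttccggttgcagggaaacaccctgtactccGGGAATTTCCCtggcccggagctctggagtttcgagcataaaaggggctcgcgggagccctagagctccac
Cxcl2: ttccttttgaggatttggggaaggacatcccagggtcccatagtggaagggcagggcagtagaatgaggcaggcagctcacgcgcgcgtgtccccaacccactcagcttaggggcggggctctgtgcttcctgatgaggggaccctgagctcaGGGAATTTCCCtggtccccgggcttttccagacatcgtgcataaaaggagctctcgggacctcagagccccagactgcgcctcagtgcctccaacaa
Cxcl3: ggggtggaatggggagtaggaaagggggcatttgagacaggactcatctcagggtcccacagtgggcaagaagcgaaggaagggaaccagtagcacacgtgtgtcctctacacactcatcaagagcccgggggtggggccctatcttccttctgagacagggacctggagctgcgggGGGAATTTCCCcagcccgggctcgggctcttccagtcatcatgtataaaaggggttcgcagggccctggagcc
The match GGGAATTTCC began 71 bases before the start of Cxcl1, 97 bases before that of Cxcl2 and 73 bases before that of Cxcl3, each with a second match 1 base further on. Over windows of 250 bases before to 50 after the start, 8.5% of 32851 RefSeq windows held a match to this consensus. Of the members, 23 had such windows, 26 windows in all, and 8 of these genes held a match in at least 1 window. They were Ccl1, Ccl9, Ccl20, Ccl27a, Cxcl1, Cxcl2, Cxcl3 and Cxcl10. Among them Ccl1 and Ccl20 were tested and not called with a peptide, and Ccl27a, Cxcl2 and Cxcl3 were not tested. The windows of Ccl6 and Cx3cl1, which were called with a peptide, held no match. The 8 are genes and the 8.5% is of windows, so the 2 differ in unit. Of the 9 members called with a peptide only 5 had a window. Cxcl5, Ccl2, Ccl7 and Ccl11 had none and were not searched for any motif. The cyclic AMP response element TGACGTCA, on both strands, was in none of the members' windows that could be searched and in 1.8% of all windows. Its half-site TGACG was in the windows of 4 members, among them Cxcl1 at 215 and 194 bases before the start, and in 20.8% of all windows. A match is a description of these letters and not a site shown to be used.

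Cxcl1 encodes a neutrophil attractant also known as KC. It had 3 probe sets that differed in how much they moved, and the one taken by the rule moved least at 1 and 6 h. At 24 h with PTH it was not the one that moved least, as given below. On the probe set whose name ends in plain _at the log2 intensities at 1 h were 11.29, 11.06 and 10.82 with PTH and 10.54, 10.42 and 10.58 with PTHrP, against 7.85, 6.36 and 7.04 in untreated cells. All 6 treated arrays were above all 3 untreated arrays. The log2 fold changes were 3.97 ± 0.25 with PTH and 3.43 ± 0.25 with PTHrP (SE; limma adjusted p 7.1e-11 and 1.26e-09 over 35371 probe sets). Both comparisons share the untreated arrays.

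At 6 h the same probe set read 8.29, 8.98 and 8.48 with PTH and 8.17, 7.49 and 7.49 with PTHrP, against 6.53, 6.96 and 6.47 in untreated cells. The treated arrays were still above the untreated ones, by 1.93 ± 0.25 with PTH and 1.06 ± 0.25 with PTHrP (adjusted p 1.6e-06 and 0.00345). At 24 h it read 8.61, 8.29 and 8.39 with PTH and 9.77, 9.63 and 9.43 with PTHrP, against 7.66, 7.63 and 7.42 in untreated cells, which is 0.86 ± 0.25 and 2.04 ± 0.25 above them (adjusted p 0.029 and 4.86e-06). On this probe set the effect of PTH was smaller at 6 h than at 1 h (-2.04 ± 0.35, adjusted p 0.000192), and again smaller at 24 h than at 6 h (-1.07 ± 0.35, adjusted p 0.039). The effect of PTHrP was smaller at 6 h than at 1 h (-2.37 ± 0.35, adjusted p 5.99e-05), and its change from 6 to 24 h did not pass the test (0.98 ± 0.35, adjusted p 0.0881).

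The _s_at probe set of Cxcl1 gave 2.06 ± 0.12 with PTH and 1.74 ± 0.12 with PTHrP at 1 h, 0.90 and 0.44 at 6 h, and 0.15 and 0.99 at 24 h, and only the value for PTH at 24 h did not pass the test (adjusted p 0.591). The _x_at probe set, which stands for the gene in all counts here, read 10.02, 9.78 and 10.41 with PTH and 9.53, 10.07 and 9.97 with PTHrP at 1 h, against 9.50, 9.48 and 9.53 in untreated cells. There the change was 0.57 ± 0.13 with PTH (adjusted p 0.014 over all genes) and did not pass the test with PTHrP (0.36 ± 0.13, adjusted p 0.269). A set whose name ends in _x_at holds probes that can match other transcripts, and levels of different probe sets cannot be set against each other. At 24 h the _x_at probe set was 0.61 ± 0.13 above untreated cells with PTH and 0.92 ± 0.13 with PTHrP (adjusted p 0.0017 and 1.86e-05), and at 6 h it did not pass the test with either peptide (0.23 and 0.16). Its call with PTH at 1 h was lost without PTH replicate 3 (0.40, adjusted p 0.186), without untreated replicate 1 (0.57, adjusted p 0.0536) and without untreated replicate 2 (0.55, adjusted p 0.0683). Without replicate 3 of PTHrP at 1 h the values of the _at and _s_at probe sets at that time were 3.40 ± 0.28 and 1.76 ± 0.14 (adjusted p 4.25e-09 and 2.32e-09), and that of the _x_at probe set was 0.30 ± 0.14 (adjusted p 0.183). The separate test of each probe set was chosen after the values were seen.

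**Figure D2:**
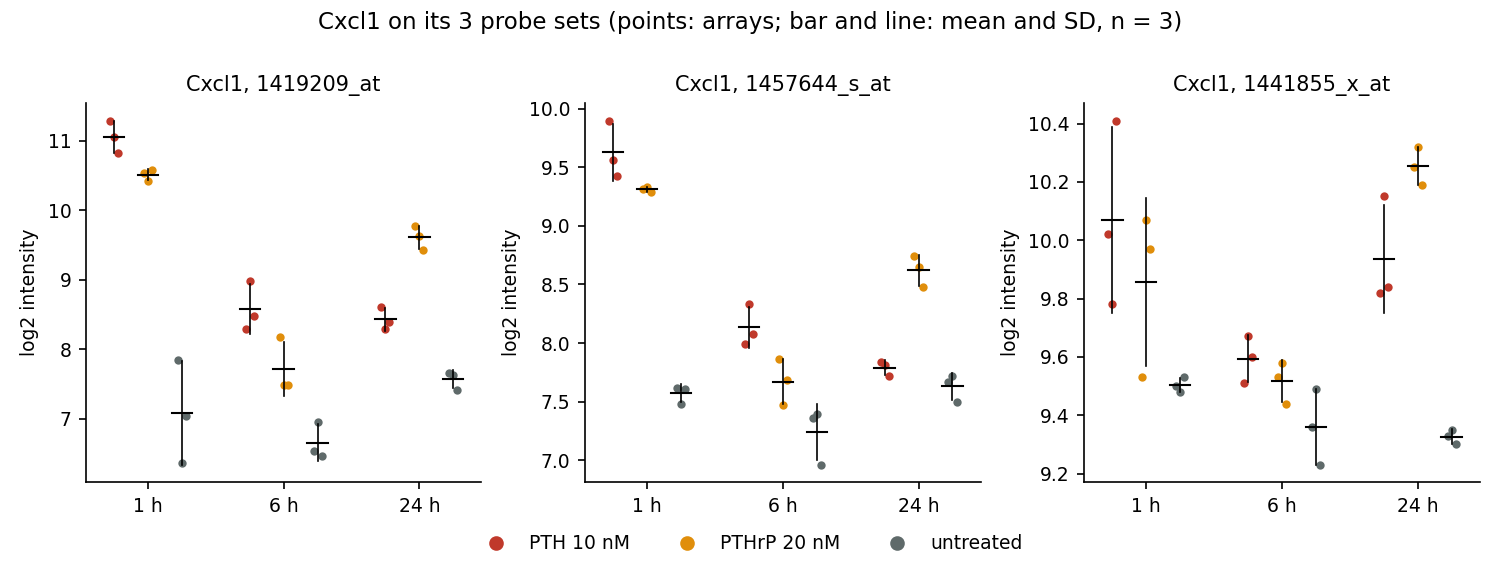
Log2 intensity (vertical axis, own scale in each panel) of the 3 Cxcl1 probe sets by time (horizontal axis), with 1 point per array and a bar and line for the mean and SD of 3 arrays, for PTH, PTHrP and untreated cells. On the _at and _s_at probe sets both peptides stand furthest above untreated cells at 1 h, while on the _x_at probe set the widest gap is with PTHrP at 24 h (0.92 log2 units).

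Cxcl5, which encodes a neutrophil attractant also known as LIX, was higher with PTH at all 3 times and with PTHrP at 6 and 24 h. At 1 h it read 8.32, 8.0 and 7.70 with PTH and 7.66, 7.86 and 7.49 with PTHrP, against 7.57, 6.64 and 6.47 in untreated cells. The PTH arrays lay above all untreated arrays and the PTHrP arrays overlapped them, with log2 fold changes of 1.11 ± 0.26 (SE, adjusted p 0.017) and 0.78 ± 0.26 (adjusted p 0.195). At 6 h it read 8.48, 9.33 and 8.76 with PTH and 8.71, 8.38 and 8.16 with PTHrP, against 7.56, 7.70 and 6.74 in untreated cells. Both peptides were above untreated cells on every array, by 1.52 ± 0.26 and 1.08 ± 0.26 (adjusted p 4.71e-05 and 0.00305).

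At 24 h Cxcl5 read 9.52, 9.46 and 9.61 with PTH and 10.85, 10.46 and 10.44 with PTHrP, against 8.21, 8.62 and 8.24 in untreated cells. The 3 groups did not overlap, and the increase with PTHrP, 4.68-fold, was the largest of any member in the 6 comparisons on the probe sets that stand for the genes, and ranked 4 among all genes higher with PTHrP at that time. The log2 fold changes were 1.17 ± 0.26 with PTH (2.26-fold, adjusted p 0.00253) and 2.23 ± 0.26 with PTHrP (adjusted p 1.45e-06). The call with PTH at 1 h was lost without untreated replicate 3 (0.90, adjusted p 0.169), untreated replicate 2 (0.99, adjusted p 0.13), PTH replicate 1 (0.96, adjusted p 0.108) or PTH replicate 2 (1.12, adjusted p 0.0696). Without replicate 3 of PTHrP at 1 h the value with PTHrP was 0.86 ± 0.28 (adjusted p 0.0688).

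Of the monocyte-attracting CC ligands of Ccr2, Ccl2 and Ccl7 were higher with PTHrP at 24 h. Of Ccl2, Ccl7, Ccl8 and Ccl12, which lie near each other on chromosome 11 with Ccl11 and Ccl1, 3 were tested. Ccl2 and Ccl7 passed the test with PTH at 6 h and with PTHrP at 24 h. Ccl2, which encodes the monocyte attractant MCP-1, read 7.55, 7.46 and 7.44 with PTH and 9.06, 8.51 and 8.50 with PTHrP at 24 h, against 7.75, 7.44 and 7.32 in untreated cells. All PTHrP arrays were above all others and the PTH arrays lay among the untreated ones. The log2 fold change was 1.19 ± 0.16 with PTHrP (2.28-fold, adjusted p 1.47e-05) and -0.01 ± 0.16 with PTH (adjusted p 0.981, 95% interval -0.35 to 0.32).

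Ccl7, which encodes the monocyte attractant MCP-3, read 7.39, 7.13 and 7.05 with PTH and 8.28, 7.72 and 7.82 with PTHrP at 24 h, against 7.00, 6.84 and 6.82 in untreated cells. Here too the PTHrP arrays were above all others. The log2 fold change was 1.05 ± 0.14 with PTHrP (2.07-fold, adjusted p 1.04e-05), and the value with PTH did not pass the test (0.30 ± 0.14, adjusted p 0.194). At 24 h Ccl2 and Ccl7 ranked 29 and 39 among genes higher with PTHrP. The stromal and osteoblast-lineage markers also moved at that time: their summed level was 15.25 to 15.36 with PTH and 15.42 to 15.65 with PTHrP, against 15.77 to 15.82 in untreated cells, and 5 of the 6 were lower with PTH and 3 with PTHrP. Their part in the results at 24 h was not tested, and in bulk samples fewer cells of a type and less RNA per cell cannot be told apart.

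At 6 h Ccl2 read 7.91, 8.06 and 8.13 with PTH and 8.01, 7.99 and 7.71 with PTHrP, against 7.57, 7.74 and 7.49 in untreated cells. Ccl7 read 7.23, 7.61 and 7.51 with PTH and 7.23, 7.33 and 7.09 with PTHrP, against 7.15, 7.17 and 6.92 in untreated cells. The PTH arrays stood just above the untreated ones for both genes, by 0.43 ± 0.16 and 0.37 ± 0.14 (adjusted p 0.0449 and 0.0461), and the PTHrP arrays overlapped them (0.31 and 0.13, adjusted p 0.204 and 0.55). These calls were close to the threshold: that of Ccl2 was lost with 10 of the 27 arrays left out in turn (highest adjusted p 0.141, without untreated replicate 3 of 6 h) and that of Ccl7 with 14 (highest 0.191, without the same array). At 1 h the arrays of Ccl2 were 8.63, 7.88 and 8.23 with PTH and 8.36, 8.47 and 7.98 with PTHrP, against 8.35, 8.24 and 8.37 in untreated cells, and those of Ccl7 were 7.70, 7.21 and 7.48 with PTH and 7.48, 7.74 and 7.39 with PTHrP, against 7.28, 7.25 and 7.39. The groups overlapped and no adjusted p was below 0.628. Without replicate 3 of PTHrP at 1 h the values with PTHrP were 0.09 ± 0.17 for Ccl2 and 0.30 ± 0.15 for Ccl7 (limma adjusted p 0.742 and 0.215).

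Ccl8, another ligand of this group, did not pass the test, and replicate 3 of PTHrP at 1 h decided its value there. It read 5.60, 5.56 and 6.15 with PTHrP at 1 h, against 5.99, 6.06 and 6.07 in untreated cells. With that array the log2 fold change was -0.27, and without it Ccl8 was lower by 0.46 log2 units (-0.46 ± 0.12, adjusted p 0.0273) and was the only member to pass the test in that comparison, 3.57% of the members against 5.94% of all genes in the same fit.

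Among the other inflammatory CC ligands, Ccl9 moved with both peptides at 6 and 24 h. Ccl9 encodes a macrophage inflammatory protein that attracts cells bearing Ccr1, osteoclast precursors among them in the mouse. At 6 h it read 7.52, 8.18 and 7.62 with PTH and 7.89, 7.63 and 7.94 with PTHrP, against 6.84, 7.35 and 6.87 in untreated cells. Treated arrays lay above untreated arrays in both, by 0.75 ± 0.23 and 0.80 ± 0.23 (adjusted p 0.0151 and 0.0141). At 24 h it read 9.0, 8.65 and 8.28 with PTH and 9.23, 8.21 and 9.20 with PTHrP, against 7.53, 7.75 and 7.33 in untreated cells, and again the treated arrays were all higher, by 1.10 ± 0.23 with PTH (2.15-fold, adjusted p 0.00185) and 1.34 ± 0.23 with PTHrP (2.54-fold, adjusted p 0.000335). At 1 h the arrays overlapped, with 7.26, 6.82 and 6.88 with PTH and 6.98, 7.04 and 7.58 with PTHrP, against 7.20, 7.24 and 7.25 in untreated cells.

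The second probe set of Ccl9 gave 0.72 and 0.69 with PTH and PTHrP at 6 h and 1.31 and 1.58 at 24 h, each past the threshold when tested by itself. The 6 h calls of the probe set that stands for Ccl9 were lost without untreated replicate 1 (adjusted p 0.0716 with PTH and 0.0714 with PTHrP), without untreated replicate 3 (0.0619 and 0.0596), without PTH replicate 2 (0.114) and without PTHrP replicate 3 (0.0554). Its 24 h calls were kept with every array left out in turn. The window of Ccl9 held 1 match to the NF-kappa B consensus, 35 bases before the start, and 1 to the AP-1 site TGANTCA, 53 bases before it, which on both strands is in 7.8% of all windows and in those of 5 members.

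Ccl11, which encodes the eosinophil attractant eotaxin, and Ccl6 lay near the filter and moved little. At 6 h Ccl11 read 5.23, 4.91 and 5.18 with PTH and 5.08, 5.12 and 5.09 with PTHrP, against 4.65, 4.82 and 4.73 in untreated cells, and only 5 of its 27 values reached 5. All treated arrays were higher, by 0.37 ± 0.09 with PTH and 0.36 ± 0.09 with PTHrP (adjusted p 0.00145 and 0.00312), and both calls were kept with every array left out in turn. Ccl6, a macrophage-associated ligand of Ccr1 in the mouse, read 5.19, 5.20 and 5.10 with PTH and 5.12, 5.28 and 5.30 with PTHrP at 6 h, against 4.96, 4.77 and 5.07 in untreated cells. It passed the test with PTHrP by a narrow margin (0.30 ± 0.11, adjusted p 0.0483) and not with PTH (0.23 ± 0.11, adjusted p 0.115), and the call was lost with 22 of the 27 arrays left out in turn (highest adjusted p 0.238, without untreated replicate 2 of 6 h). The 5 values of Ccl11 that reached 5 were all from treated arrays of 6 h, so it passed the filter through the groups where it was high and its call gives no support. At 1 and 24 h neither gene passed the test, with values for both peptides between -0.11 and 0.10.

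Of the other 4 genes of this group, Ccl3, Ccl4, Ccl5 and Ccl24, none passed the test, and their log2 fold changes lay between -0.23 and 0.22. Cd68, the one macrophage marker of the 9 tested that passed in a comparison of a peptide with untreated cells, was 0.46 higher with PTH at 6 h and 0.47 lower with PTH at 24 h (-0.47, adjusted p 0.0173 and 0.0371). The arrays overlapped at 24 h. Its part in the ligand results was not tested.

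**Figure D3:**
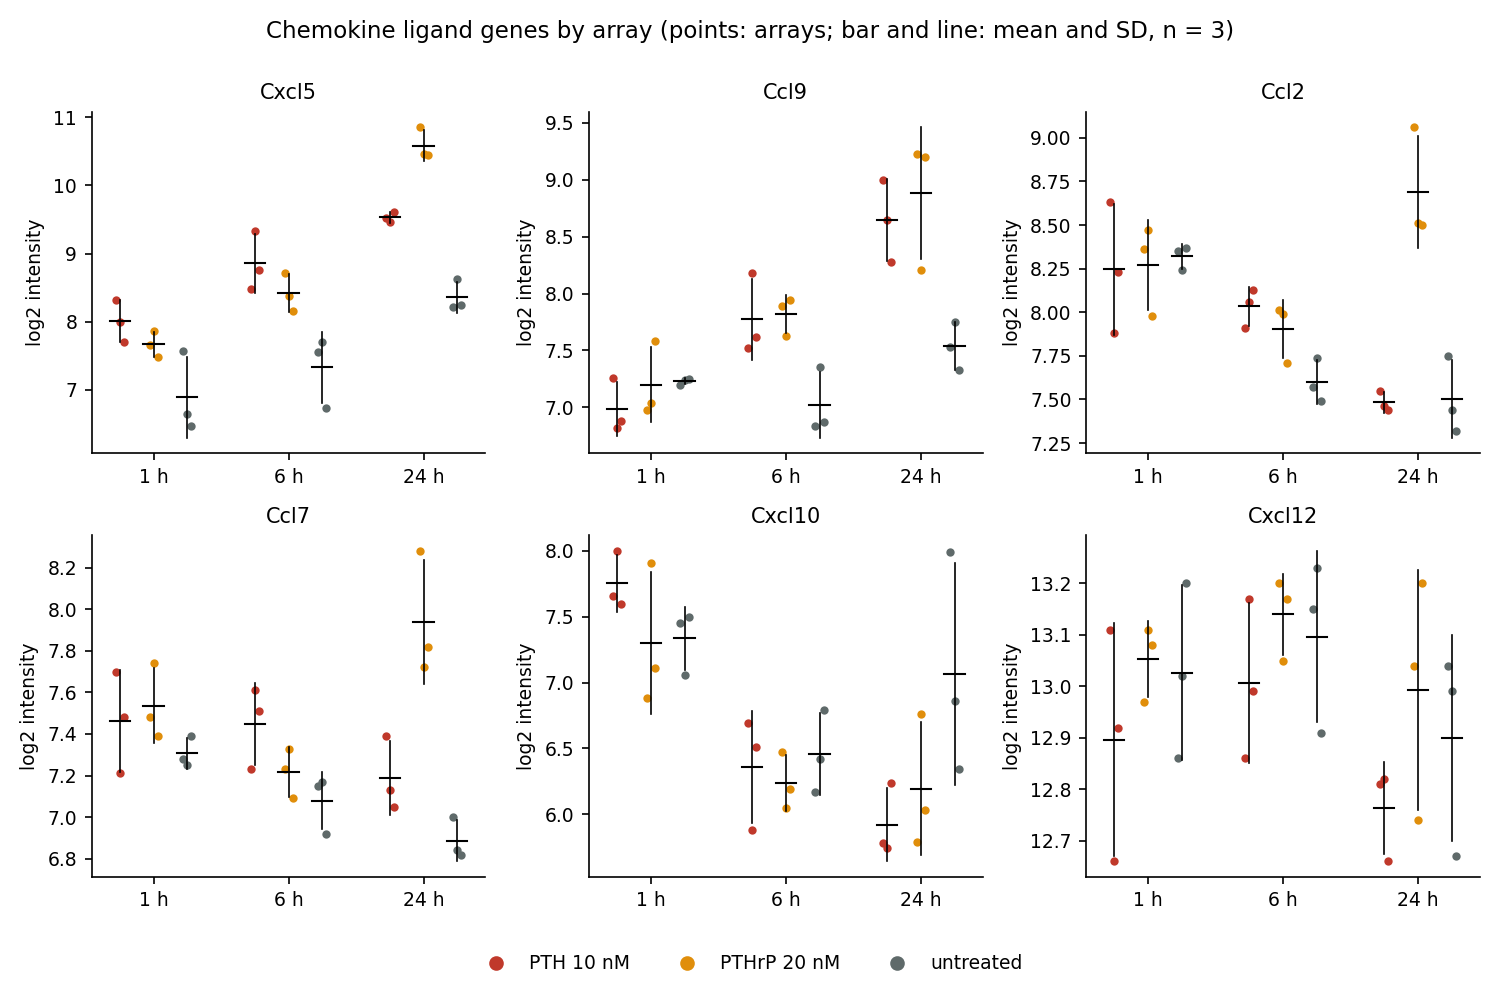
Log2 intensity (vertical axis, own scale in each panel) of Cxcl5, Ccl9, Ccl2, Ccl7, Cxcl10 and Cxcl12 by time (horizontal axis), with 1 point per array and a bar and line for the mean and SD of 3 arrays, for PTH, PTHrP and untreated cells. Cxcl5 and Ccl9 stand above untreated cells with both peptides at 6 and 24 h, Ccl2 and Ccl7 stand apart with PTHrP at 24 h, and the groups of Cxcl12 overlap at each time.

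Among the interferon-inducible ligands of Cxcr3, which attract activated T cells, Cxcl10 was lower with PTH at 24 h and Cxcl9 and Cxcl11 did not pass the test. Cxcl10 read 5.78, 5.74 and 6.24 with PTH and 5.79, 6.76 and 6.03 with PTHrP at 24 h, against 7.99, 6.86 and 6.34 in untreated cells. The PTH arrays lay below the untreated arrays, which spread widely (7.06 ± 0.84, SD, n = 3), and the PTHrP arrays overlapped them. The log2 fold change was -1.14 ± 0.32 with PTH (adjusted p 0.0184) and -0.87 ± 0.32 with PTHrP (adjusted p 0.133). The PTH value rested on untreated replicate 1: without it the value was -0.68 (adjusted p 0.182), and the call was also lost without PTH replicate 1 (-1.07) or PTH replicate 2 (-1.05, adjusted p 0.0682 in both). At 1 h Cxcl10 read 7.66, 8.0 and 7.60 with PTH and 6.88, 7.91 and 7.11 with PTHrP, against 7.45, 7.06 and 7.50 in untreated cells. At 6 h it read 6.69, 5.88 and 6.51 with PTH and 6.47, 6.05 and 6.19 with PTHrP, against 6.17, 6.42 and 6.79 in untreated cells. Neither time gave a call.

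The 250 bases before the start of Cxcl10, on the minus strand of GRCm38.p6 at chr5:92348890-92349139 in RefSeq, are shown beside those of the Cxcr2 ligands because this gene was lower with PTH and also holds the consensus. Capitals again mark matches to the NF-kappa B consensus.
Cxcl10: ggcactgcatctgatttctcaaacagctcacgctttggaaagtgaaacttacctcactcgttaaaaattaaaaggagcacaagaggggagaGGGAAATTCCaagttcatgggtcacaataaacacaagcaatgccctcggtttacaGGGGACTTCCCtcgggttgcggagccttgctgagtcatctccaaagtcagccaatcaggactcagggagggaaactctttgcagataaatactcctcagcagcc
The matches began 159, 104 and 103 bases before the start, the last pair overlapping. The window also held a match to the interferon-stimulated response element 213 bases before the start, which on both strands is in 3.4% of all windows and in those of 2 members, and the AP-1 site 74 bases before it.

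Cxcl12, the ligand of Cxcr4 through which marrow stroma retains haematopoietic stem cells, did not change with either peptide by the test used. At 24 h it read 12.81, 12.82 and 12.66 with PTH and 13.04, 12.74 and 13.20 with PTHrP, against 13.04, 12.99 and 12.67 in untreated cells. Its log2 fold changes were -0.13 with PTH (95% interval -0.40 to 0.13) and 0.10 with PTHrP (-0.17 to 0.36), and over all 9 groups its means ran from 12.77 to 13.14. The other stromal and homeostatic CXC ligands, Cxcl13, Cxcl14, Cxcl16 and Cxcl17, gave values between -0.21 and 0.17 with no call, and the tissue-homing CC ligands Ccl1, Ccl17, Ccl20, Ccl22, Ccl25 and Ccl28 between -0.22 and 0.16 with no call.

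Cx3cl1 encodes fractalkine, a chemokine that is also held at the membrane on a mucin stalk. It read 8.68, 8.64 and 8.49 with PTH and 8.52, 8.51 and 8.60 with PTHrP at 6 h, against 8.35, 8.40 and 8.34 in untreated cells. The arrays of both peptides were above the untreated ones by small amounts, 0.24 ± 0.08 with PTH (adjusted p 0.0216) and 0.18 ± 0.08 with PTHrP (adjusted p 0.108). None of its other 3 probe sets passed the test with PTH at 6 h (0.15, 0.18 and -0.05), and the call was lost without PTH replicate 1 (adjusted p 0.101), PTH replicate 2 (0.0726), untreated replicate 1 (0.0627) or untreated replicate 3 (0.0631).

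PTHrP at 20 nM and PTH at 10 nM, which differ in dose and length, were also set against each other at each time. At 1 h 0 of the 28 genes passed limma's test, as did 0% of all genes, and 1 had an unadjusted p under 0.05. At 6 h 0 passed, against 7.62% of all genes, and none had an unadjusted p under 0.05. At 24 h 3 genes passed, all higher with PTHrP, 10.7% of the members against 1.16% of all genes in either direction and 0.84% higher. They were Ccl2 (1.20 ± 0.16, adjusted p 9.48e-05), Ccl7 (0.75 ± 0.14, adjusted p 0.00423) and Cxcl5 (1.05 ± 0.26, adjusted p 0.0405), and the PTHrP arrays were above the PTH arrays for each. Ccl2 and Ccl7 ranked 4 and 31 among genes higher with PTHrP, and their calls were kept with every array left out in turn. The call of Cxcl5 was lost with 8 of the 27 arrays left out, namely any of the 3 PTH or 3 PTHrP arrays of 24 h, untreated replicate 3 of 24 h or PTHrP replicate 2 of 6 h, with values between 0.92 and 1.12 and a highest adjusted p of 0.2 without PTHrP replicate 1. Ccl9 did not pass (0.24 ± 0.23, 95% interval -0.24 to 0.72), nor did Cxcl10 (0.28 ± 0.32, -0.39 to 0.94).

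Cxcl1 again depended on the probe set. On the _x_at probe set PTHrP exceeded PTH at 24 h by 0.31 ± 0.13, which did not pass the test (adjusted p 0.363). On the _at and _s_at probe sets PTHrP was lower than PTH at 6 h (-0.87 ± 0.25 and -0.47 ± 0.12, adjusted p 0.041 and 0.0276) and higher at 24 h (1.18 ± 0.25 and 0.84 ± 0.12, adjusted p 0.022 and 0.000632).

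In untreated cells some of the same genes moved with time in culture. From 1 to 6 h, 1 of the 28 genes passed, Ccl2, lower at 6 h (-0.72 ± 0.16, adjusted p 0.0144), against 2.27% of all genes and 1.55% lower. At 24 h against 1 h, 3 passed, 10.7% of the members against 23.1% of all genes (11.6% higher and 11.5% lower). Cxcl5 was higher (1.46 ± 0.26, adjusted p 0.000117), and Ccl2 and Ccl7 were lower (-0.82 ± 0.16 and -0.42 ± 0.14, adjusted p 0.000448 and 0.0298). The level of Ccl2 with PTHrP at 24 h, 8.69 ± 0.32 (SD, n = 3), stood 1.19 above untreated cells of 24 h, and untreated cells of 1 h had read 8.32 ± 0.07. The call of Ccl2 at 6 h was lost without untreated replicate 1 or 3 of 1 h or of 6 h (highest adjusted p 0.0879), and that of Ccl7 at 24 h without any untreated array of 1 h or replicate 2 or 3 of 24 h (highest 0.112).

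The effect of a peptide also changed between times, counted here on the probe set that stands for each gene. For Cxcl1 that is the _x_at probe set. On its _at probe set, as given above, the effects of both peptides were smaller at 6 h than at 1 h. From 6 to 24 h the effect of PTH on that probe set was smaller again, and that of PTHrP did not pass the test of a change. The effect of PTH grew from 1 to 6 h for 1 of the 28 genes, Ccl9, against 18.5% of all genes in either direction and 6.49% upward. From 6 to 24 h it shrank for 2, Ccl11 and Cx3cl1, against 20.4% and 7.82% downward, and without Ccl11, for the reason given above, it shrank for 1. The effect of PTHrP did not pass the test of a change from 1 to 6 h for any of the 28, against 12.2% of all genes, with 4 at an unadjusted p under 0.05 by limma. Without replicate 3 of PTHrP at 1 h it did for 5, 17.9% of the members against 26% of all genes in that fit. Those 5 were Ccl8, Ccl9, Ccl11, Ccl17 and Cx3cl1, and the call of Ccl11 gives no support. From 6 to 24 h the effect of PTHrP grew for Ccl2, Ccl7, Cxcl1 and Cxcl5 and shrank for Ccl11, against 12.1% of all genes, 7.08% upward and 5.03% downward, the change of Ccl11 again giving no support.

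Atypical receptors bind chemokines without G protein signalling and remove them, and they were set beside the signalling receptors. Of 20 chemokine receptors on the list 18 were on the array and 14 were tested, and Ccr7, which guides cells to lymph nodes along Ccl19 and Ccl21, was the one called with a peptide. Ccr7 read 5.62, 5.73 and 5.58 with PTH and 5.36, 5.47 and 5.48 with PTHrP at 6 h, against 4.84, 4.87 and 5.03 in untreated cells, 0.73 ± 0.10 and 0.52 ± 0.10 higher (adjusted p 3.9e-06 and 0.000437). Cxcr4, the signalling receptor of Cxcl12, was below the filter.

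Ackr3, which encodes a scavenging receptor of Cxcl12 and Cxcl11, was higher with both peptides at 1 and 6 h. At 1 h it read 6.31, 6.99 and 6.89 with PTH and 6.63, 6.18 and 7.00 with PTHrP, against 5.57, 5.40 and 5.62 in untreated cells. At 6 h it read 8.58, 9.04 and 8.78 with PTH and 7.93, 7.58 and 8.15 with PTHrP, against 4.69, 5.40 and 4.08. By 24 h it was 4.49, 4.56 and 4.86 with PTH and 4.29, 4.51 and 4.31 with PTHrP, against 4.61, 4.30 and 4.29, so that the groups overlapped.

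The increase of Ackr3 was 1.20 ± 0.24 with PTH and 1.07 ± 0.24 with PTHrP at 1 h (adjusted p 0.00389 and 0.0125), and 4.08 ± 0.24 and 3.16 ± 0.24 at 6 h (adjusted p 1.66e-12 and 3.71e-10). Of the untreated arrays of 6 h, 2 of 3 read below 5, where readings carry little signal over background, so the sizes at 6 h are differences of the deposited values and no fold is given. PTHrP was below PTH at 6 h (-0.91 ± 0.24, adjusted p 0.0194). The PTHrP value at 1 h was 0.87 ± 0.25 without replicate 3 (adjusted p 0.0395), and that call was lost without PTHrP replicate 1 (adjusted p 0.0594) or untreated replicate 2 (0.0802). Of the other atypical receptors, Ackr2, which clears inflammatory CC ligands, was 0.28 and 0.36 higher with PTH and PTHrP at 6 h (adjusted p 0.03 and 0.00866). The probe set used for Ackr4 was 0.46 higher with PTH at 6 h (adjusted p 0.0116) and 0.50 lower with PTH at 24 h (-0.50 ± 0.14, adjusted p 0.0155). The calls of Ackr2 and Ackr4 were each lost without 2 or 3 of the arrays compared, with adjusted p up to 0.203 for Ackr2 with PTH (without untreated replicate 2) and 0.12 for Ackr4 at 24 h (without untreated replicate 3). Other probe sets of these 2 genes gave other values. With the mean over all probe sets, Ackr4 was lower at 6 h with both peptides (-0.64 with PTH and -0.73 with PTHrP, adjusted p 1.36e-06 and 3.23e-07), and Ackr2 did not pass (0.10 and 0.16, adjusted p 0.483 and 0.211), so no direction is given for Ackr4 at 6 h. By that mean Ackr4 was also lower at 24 h with both peptides (-0.52 with PTH and -0.47 with PTHrP, limma adjusted p 8.09e-05 and 0.000363). At 1 h, with all PTHrP arrays kept, it was 0.37 higher with PTHrP (limma adjusted p 0.0109). With PTH at 1 h it did not pass (0.10, adjusted p 0.73). Of the ligands outside the symbol rule, the platelet gene Ppbp was 0.51 higher with PTH at 6 h (adjusted p 0.000583) and Pf4 was not called. Ppbp lay near the filter, at 5.44, 5.39 and 5.19 with PTH at 6 h, against 4.76, 4.84 and 4.88 in untreated cells. Pth1r, the receptor of both peptides, was lower with PTH at 6 and 24 h (-1.12 and -0.82) and with PTHrP at 6 h (-0.39).

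**Figure D4:**
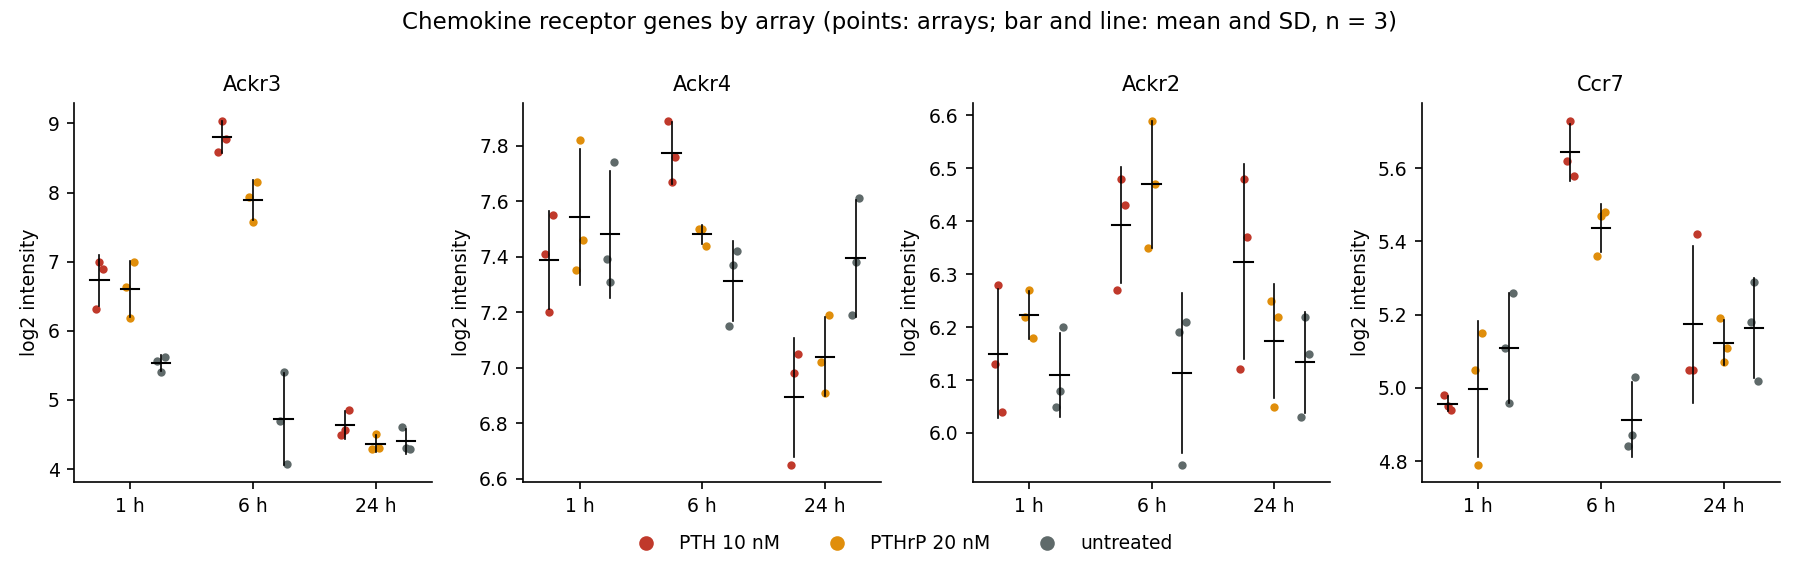
Log2 intensity (vertical axis, own scale in each panel) of Ackr3, Ackr4, Ackr2 and Ccr7 by time (horizontal axis), with 1 point per array and a bar and line for the mean and SD of 3 arrays, for PTH, PTHrP and untreated cells. Ackr3 stands above untreated cells with both peptides at 1 and 6 h, the untreated arrays of 6 h lying partly below 5, and overlaps them at 24 h.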

How the data were processed

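Total RNA of KUSA4b10 cells was hybridised to 27 Affymetrix arrays of 1 colour. The authors deposited 1 intensity value on a linear scale for each of 45101 probe sets, and the submitters' processing notes name RMA. The design text says that they were normalized again for the deposit, and no software version is given in the sources used here. RMA pulls array distributions together, so a change in most transcripts would be hidden and changes of dim genes are understated. Values ran from 6.79 to 36257, with array medians of 83.15 to 91.08. Log2 was taken first. Probe sets with 1 gene symbol in the platform annotation numbered 34945 after 64 control probe sets were left out, and 34741 of them matched a RefSeq gene by identifier. Another 932 carried several symbols, among them 4 of chemokines, so that 7 genes (Ccl19, Ccl19-ps1, Ccl21a to Ccl21d and Ccl27b) are not analysed here. A gene was tested where 3 or more arrays reached a log2 value of 5.

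limma 3.58.1 in R 4.3.3 fitted 9 group means to all 27 arrays (lmFit, eBayes; 18 residual and 5.54 prior degrees of freedom), with 15 two-sided comparisons, Benjamini-Hochberg adjustment over 15711 genes and a threshold of 0.05. Errors after a fold change are SE, and the number of arrays limits the precision (median SE 0.102 for 2 groups). Ranks are by size of change among genes moving the same way. On simulated data for PTH against untreated cells at 6 h, with 15711 genes and independent noise, 100 genes were changed by 1 log2 unit and 100 by 2. Of these 98% and 100% were recovered, with 10 false calls. Smaller changes were not simulated, so their recovery is not known from it. Members given by array are those past the threshold in at least 1 comparison of a peptide with untreated cells of the same time, and a few others (Ccl8, Cxcl12 and the receptors) were added after their values were seen. The members and lists were chosen with earlier results of these data known. Alternatives were another normalization, other filters, array weights, the probe set rule, the arrays fitted, a replicate block, a test against a 1.5-fold change and each array left out. The labels number replicates alike and name neither a common culture nor a common day. The deviations of same-numbered arrays from their group means had correlations of -0.458 to 0.449, and all exceeded 0.1 in only 1 of the 9 group pairs, so the numbers were not taken to pair samples. Figures were drawn with matplotlib 3.10.9.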

Additional observations from a re-analysis of the deposited data

Results flagged for a closer look

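The effect of a peptide differed between times, by limma's test of the difference itself, for 8 results of 7 ligand genes. The effect of PTH on Ccl9 was larger at 6 h than at 1 h (1.00 ± 0.33, adjusted p 0.0349), and this was lost without 8 of the 27 arrays in turn (0.79 and adjusted p 0.112 without PTH replicate 2 of 6 h). That was 1 of 28 genes, against 18.5% of all genes. From 6 to 24 h the effect of PTH became smaller for Ccl11 (-0.48 ± 0.12, adjusted p 0.00525) and Cx3cl1 (-0.32 ± 0.11, adjusted p 0.0444), 2 of 28 genes against 20.4% of all, and the call of Cx3cl1 was lost without 14 of the 27 arrays (highest adjusted p 0.121, without PTH replicate 3 of 24 h). Ccl11 reached 5 on 5 of 27 arrays, all treated arrays of 6 h, so it passed the filter only through the groups where it was high, and its changes of effect give no support.

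From 6 to 24 h the effect of PTHrP grew for 4 genes and shrank for 1, 17.9% of the members against 12.1% of all genes, and 14.8% of 27 members without Ccl11. It grew for Ccl7 (0.92 ± 0.20, adjusted p 0.00247), Ccl2 (0.88 ± 0.23, adjusted p 0.0108), Cxcl1 (0.77 ± 0.18, adjusted p 0.00553) and Cxcl5 (1.15 ± 0.36, adjusted p 0.0392), and it shrank for Ccl11 (-0.41 ± 0.12, adjusted p 0.027). The calls of Ccl2, Ccl7 and Cxcl1 were kept with every array left out in turn. The call of Cxcl1 is on its _x_at probe set. On its _at probe set, as given above, the same change did not pass the test, and the PTH effect became smaller from 6 to 24 h. That of Cxcl5 was lost without 8 arrays (highest adjusted p 0.117, without untreated replicate 2 of 6 h) and that of Ccl11 without 4 (highest 0.0854, without PTHrP replicate 2 of 24 h). The change of the PTHrP effect from 1 to 6 h gave 0 calls by limma, with 4 genes at an unadjusted p under 0.05, against 12.2% of all genes called. Without replicate 3 of PTHrP at 1 h it gave 5, 17.9% of the members against 26% of all genes in that fit. Ccl11 was among the 5 and gives no support. These counts do not use the _at probe set of Cxcl1, on which the PTHrP effect was smaller at 6 h than at 1 h. There the change was -2.33 ± 0.37 without that array (limma adjusted p 7.38e-05).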

How the results depend on the processing

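Among the values of the 9 ligand genes in the 6 comparisons with untreated cells, the 21 past the threshold kept their direction under every alternative run and none reversed. They stayed past it in 501 of 567 values with 1 array left out and in 157 of 185 under the other alternatives. Without the test against a 1.5-fold change it was 155 of 164 of the latter. The 21 include both calls of Ccl11 at 6 h, which were kept with every array left out in turn. They give no support, for the reason given above. Ccl11 is also in the counts at 6 h that follow and in several of those for changes of effect, among them the array-weights counts from 6 to 24 h. With 1 array left out, the number of ligand genes called ran from 0 to 2 with PTH and 0 to 1 with PTHrP at 1 h, from 2 to 7 and 2 to 4 at 6 h, and from 3 to 4 and 5 to 6 at 24 h. It ran from 2 to 3 for PTHrP against PTH at 24 h and was 0 at 1 and 6 h. It ran from 0 to 3 and 1 to 4 for the changes of the PTH effect, from 0 to 5 and 3 to 6 for those of the PTHrP effect, and from 0 to 1 and 2 to 3 for untreated cells at 6 and 24 h against 1 h. Over all genes the number ran from 194 to 441 with PTH and 193 to 931 with PTHrP at 1 h. At 6 h it ran from 3830 to 5058 and 2484 to 3883, and at 24 h from 1275 to 2157 and 673 to 1171. For PTHrP against PTH it was 0 to 1, 626 to 1641 and 77 to 230 at 1, 6 and 24 h. It ran from 2355 to 3477 and 2734 to 3710 for the changes of the PTH effect. For those of the PTHrP effect it was 1434 to 4079 and 1436 to 2522, and for untreated cells 175 to 585 and 2853 to 4143.

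Against a 1.5-fold change, 1 gene, Cxcl5, was called with PTH at 6 h and with PTHrP at 24 h. That test gave 0 with PTH at 1 and 24 h, with PTHrP at 6 h, for PTHrP against PTH at 24 h, for both changes of the PTH effect, for the PTHrP effect from 6 to 24 h and for untreated cells over time. Over all genes it called 569 with PTH at 6 h and 70 with PTHrP at 24 h. It called 58 and 134 with PTH at 1 and 24 h and 286 with PTHrP at 6 h. For PTHrP against PTH at 24 h it called 2. For the changes of the PTH effect it called 335 and 294, and for the PTHrP effect from 6 to 24 h 106. For untreated cells at 6 and 24 h it called 16 and 319. Array weights gave 3 with PTHrP at 1 h, 9 with PTHrP at 6 h, 3 for PTHrP against PTH at 6 h, 5 and 4 for the changes of the PTH effect, 10 for each change of the PTHrP effect and 2 for untreated cells at 6 h. The share of all genes called was then 11.2% and 44.2% with PTHrP at 1 and 6 h, 28.9% for PTHrP against PTH at 6 h, 27.7% and 32.6% for the changes of the PTH effect, 39.6% and 31.7% for those of the PTHrP effect, where the 10 genes were 35.7% of the members, and 8.32% for untreated cells at 6 h. Array weights moved the count over all genes from 285 to 1764 with PTHrP at 1 h and from 3288 to 6952 at 6 h. The mean over the probe sets of a gene gave 1 with PTHrP at 1 h and for PTHrP against PTH at 6 h, both Cxcl1, 2 and 1 for the changes of the PTH effect and 1 for the PTHrP effect from 1 to 6 h. Counting a gene by any probe set, chosen after the data were seen, gave 1, 1, 2 and 1 for PTHrP at 1 h, PTHrP against PTH at 6 h, and the PTH and PTHrP effects from 1 to 6 h. A filter at 6 gave 2 with PTHrP at 6 h, fewer genes being tested, and 1 for the PTH effect from 6 to 24 h, as did no filter. Cyclic loess gave 2 for the PTH effect from 1 to 6 h and 3 for the PTHrP effect from 6 to 24 h. Fitting only the arrays compared gave 2 and 1 for the effects of PTH and PTHrP from 1 to 6 h and 2 for untreated cells at 6 h, and ended the call of Cxcl10 with PTH at 24 h (adjusted p 0.0511). The cause of the other moves was not tested. Counts over all genes under the probe set, filter, loess and compared-array settings are not given here. The moves under those settings are therefore not read as particular to the ligands.

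With the replicate number as a block, the PTH effect from 6 to 24 h gave 1 gene, without Cx3cl1, PTHrP at 6 h gave 3, without Ccl6, and no other ligand call changed. Over all genes the block gave 3116 for that change of effect and 3186 with PTHrP at 6 h, against 3211 and 3288 without it. At 6 h Ackr4 turned from higher to lower with the mean over its probe sets (-0.64 with PTH and -0.73 with PTHrP) and on its strongest probe set (-1.41 and -1.47). Background correction and a slide or scan-date block were not run, since no probe-level values or dates were used here. Readings near 5 carry little signal over background, which limits Ccl11, Ccl6, Ccr7, Ppbp and the untreated level of Ackr3. Counting without Ccl11, chosen after the data were seen, left 1 gene for the PTH effect from 6 to 24 h.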
